A study of Homo sapiens with 15 samples.

Results

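The comparison described here asks whether all-trans retinoic acid (ATRA) changed gene expression by a different amount in hyperoxia than in normoxia. A549, an established human lung adenocarcinoma line labelled as wild type, was kept for 72 h in 95% O2 (hyperoxia) or 21% O2 (normoxia), after cells had received 1e-05 mM ATRA, ethanol vehicle or no vehicle. All libraries whose labels state both the oxygen level and the treatment were used, 14 of 15, and each held total RNA from this single line. At each oxygen level there were 3 ATRA libraries and 4 control libraries, the controls being 2 vehicle and 2 no vehicle libraries pooled. The labels do not say that the libraries of a group came from separate cultures, so p-values measure only the spread between these libraries. The interaction is the log2 ATRA effect in hyperoxia minus the log2 ATRA effect in normoxia: a negative value means that ATRA left the gene lower, relative to its controls, in hyperoxia than in normoxia.

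ATRA, an active form of vitamin A, binds retinoic acid receptors, which pair with retinoid X receptors on DNA and turn on genes that include the enzymes that clear retinoic acid. Hyperoxia damages cells through reactive oxygen species, and p53 signaling, growth arrest and NF-kB signaling are known parts of the response of lung epithelium. NF-kB is a family of transcription factors, held inactive by inhibitor proteins, that drives inflammatory and survival genes.

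Library depth, as the sum of counts over genes, ran from 2642377 to 5605072. One library stood apart, hyperoxia no vehicle replicate 1. It had counts on 12657 genes against 16465 to 20108 in the others, and it had 0 counts on 950 genes with a mean count over 20, against 0 to 44 such genes in the other libraries. It lay at -194 on the first principal component of log2 CPM, where CPM is a gene's count relative to the normalised total of its library, which held 43.1% of the variance, with the others between -9.52 and 35.5. Counts of called genes and list medians are therefore given with it (14 libraries) and without it (13 libraries), and other values are from 14 libraries unless 13 are named. The second fit was chosen after seeing the data. In bulk RNA, fewer cells of a type and less RNA per cell cannot be told apart.

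In the 14 libraries, 5 of 14720 genes tested, or 0.0340%, had an interaction at an adjusted p under 0.05 (edgeR quasi-likelihood test, Benjamini-Hochberg adjustment). Of these, 4 had a lower and 1 a higher ATRA effect in hyperoxia. The 4 were IGFBP3, TFPI2, PLOD2 and FGD6, and the other was CCND3. At an unadjusted p under 0.05 there were 785 genes, or 5.33%. Without hyperoxia no vehicle replicate 1, 29 of 14617 genes, or 0.198%, passed the adjusted threshold, including all 5, and 1221, or 8.35%, had an unadjusted p under 0.05. No gene passed the edgeR test when the no vehicle libraries alone served as controls, where 708 had an unadjusted p under 0.05.

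IGFBP3 and TFPI2 were higher with ATRA at both oxygen levels, with a smaller ratio to the controls in hyperoxia. IGFBP3 encodes a secreted protein that binds insulin-like growth factors, and lies on chromosome 7 from 45912245 to 45921272 (GRCh38.p14). Its level in normoxia was 78.5 and 95.9 CPM in the no vehicle libraries, 65.1 and 66.5 CPM in the vehicle libraries, and 474, 381 and 331 CPM in the ATRA libraries. Its hyperoxia levels were 302 and 281 CPM without vehicle, 295 and 271 CPM with vehicle, and 507, 466 and 441 CPM with ATRA. The ATRA libraries thus lay above every control library at each oxygen level, but the hyperoxia controls already lay above all normoxia controls. The log2 ATRA effect was 2.37 in normoxia (SE 0.14) and 0.72 in hyperoxia (SE 0.13), an interaction of -1.65 (95% interval -2.06 to -1.25, adjusted p = 0.00183 by edgeR's quasi-likelihood test). It was -1.60 without hyperoxia no vehicle replicate 1. Over 24 alternatives the interaction of IGFBP3 ranged from -1.83 to -1.46, and its adjusted p from 3.82e-13 to 0.169 with edgeR, DESeq2 or voom, the last with the no vehicle controls alone.

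TFPI2, a secreted inhibitor of serine proteases on chromosome 7 from 93885396 to 93890753, was measured in normoxia at 95.2 and 93.0 CPM without vehicle, 97.6 and 94.5 CPM with vehicle, and 575, 544 and 509 CPM with ATRA. In hyperoxia it was at 244 and 245 CPM without vehicle, 234 and 223 CPM with vehicle, and 867, 639 and 619.8 CPM with ATRA. Its ATRA and control libraries did not overlap at either oxygen level. The log2 ATRA effect was 2.51 in normoxia (SE 0.11) and 1.58 in hyperoxia (SE 0.11). The interaction was -0.93 (95% interval -1.26 to -0.60, adjusted p = 0.0409 by edgeR), and -0.89 in 13 libraries. This call was close to the threshold. It held in 8 of 24 alternatives and was lost when any of 12 single libraries was left out, with values from -0.96 to -0.84 in those fits.

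PLOD2 and FGD6 had ATRA effects of opposite sign at the 2 oxygen levels. PLOD2, a lysyl hydroxylase that modifies collagen before it is crosslinked, lies on chromosome 3 from 146069440 to 146161184. In normoxia it was at 198 and 159.9 CPM without vehicle, 154 and 169.7 CPM with vehicle, and 195, 215 and 204 CPM with ATRA, so that ATRA and control libraries overlapped. Hyperoxia levels of PLOD2 were 582 and 604 CPM without vehicle, 697 and 627 CPM with vehicle, and 356, 334 and 384 CPM with ATRA, and the ATRA libraries lay below every control. The hyperoxia ATRA libraries still lay above all normoxia libraries. The interaction was -1.07 (95% interval -1.38 to -0.76, adjusted p = 0.00546 by edgeR), from a log2 ATRA effect of 0.26 in normoxia (SE 0.10) and -0.81 in hyperoxia (SE 0.10). It was -1.08 in 13 libraries.

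FGD6, an exchange factor that activates the small GTPase CDC42, lies on chromosome 12 from 95076749 to 95217467. Its normoxia levels were 128 and 119 CPM without vehicle, 108 and 107 CPM with vehicle, and 165, 192 and 167 CPM with ATRA. Its hyperoxia levels were 262 and 255 CPM without vehicle, 267 and 259.9 CPM with vehicle, and 202, 193 and 193 CPM with ATRA. Controls and ATRA libraries were fully apart at both oxygen levels, with ATRA higher in normoxia and lower in hyperoxia. The log2 ATRA effect was 0.59 in normoxia and -0.41 in hyperoxia (both SE 0.10), an interaction of -1.01 (95% interval -1.30 to -0.72, adjusted p = 0.00546 by edgeR). It was -0.98 in 13 libraries. The calls of PLOD2 and FGD6 were each lost in 2 of 24 alternatives: with the no vehicle controls alone (both adjusted p = 0.712, edgeR) and without hyperoxia ATRA replicate 2 (both adjusted p = 0.0614, edgeR).

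CCND3 was the called gene with the higher ATRA effect in hyperoxia. It encodes cyclin D3, which partners the kinases that start the passage from G1 to S phase, and lies on chromosome 6 from 41934933 to 42050035. In normoxia it was at 260.4 and 385 CPM without vehicle, 335 and 353 CPM with vehicle, and 172, 160.4 and 199.9 CPM with ATRA, below every control. Under hyperoxia CCND3 was at 82.1 and 119.8 CPM without vehicle, 85.2 and 88.0 CPM with vehicle, and 119, 137 and 110.4 CPM with ATRA, where hyperoxia no vehicle replicate 2 overlapped the ATRA libraries. The interaction of CCND3 was 1.29 (95% interval 0.84 to 1.74, adjusted p = 0.0409 by edgeR), from -0.91 in normoxia to 0.38 in hyperoxia (both SE 0.15), and 1.25 in 13 libraries. Its value stayed between 1.16 and 1.46 in 24 alternatives, but the call held in 9 of them and was lost when any of 11 single libraries was left out.

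**Figure D1:**
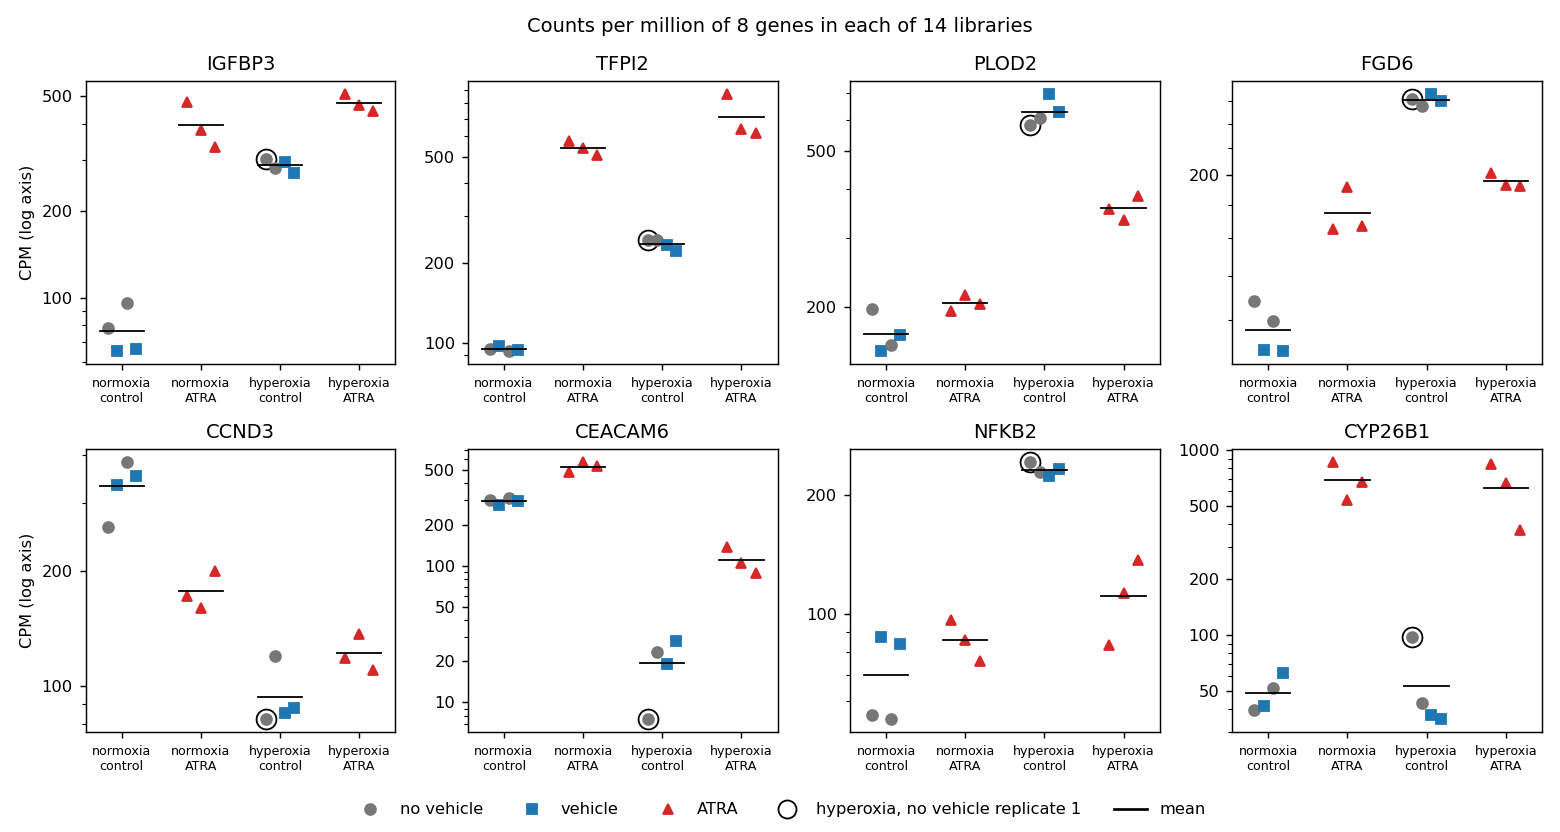
TMM-normalised CPM (log axis) of 8 genes in each of 14 libraries, by oxygen level and treatment, with a line at each group mean and a ring around hyperoxia no vehicle replicate 1. In IGFBP3, TFPI2 and CYP26B1 the ATRA libraries (red) sit above the controls at both oxygen levels, whereas in PLOD2, FGD6 and NFKB2 they sit below the controls in hyperoxia.

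The library numbers form runs, IA01 to IA03, IA04 to IA09 and IA11 to IA15, which the labels do not describe as batches. The later 2 runs hold all 4 kinds of library, so the interaction could be computed within each. IGFBP3 gave -1.71 and -1.34 in these runs, TFPI2 -1.08 and -0.96, PLOD2 -1.26 and -1.02, FGD6 -1.14 and -0.99, and CCND3 1.31 and 1.21. The first run has no normoxia control and gave no value. The later runs hold libraries in which these genes were called, so their values are not independent of the calls.

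Without hyperoxia no vehicle replicate 1, the 29 genes divided into 13 with a lower ATRA effect in hyperoxia (0.0889% of genes tested) and 16 with a higher one (0.109%). Since the fit of 13 libraries was added after seeing the data, those of the 24 genes it added that fall outside the naming rule were named after their values were seen. Among the 13, ATRA effects in normoxia were all positive. In hyperoxia they were negative for 10 (PLOD2, FGD6, NFKB2, BIRC3, CA8, RND3, ARNTL2, ITGA2, COTL1 and SQSTM1) and positive for 3 (IGFBP3, TFPI2 and GPRC5B). Among the 16, ATRA effects were negative in normoxia and positive in hyperoxia for 15, while CEACAM6 was positive in both. No gene of the 29 changed the sign of its interaction in the 20 alternatives to this fit or within either run. These reuse the libraries by which the 29 were chosen, so agreement in sign is not independent evidence.

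CEACAM6 is a cell adhesion molecule of epithelial surfaces on chromosome 19 from 41755530 to 41772211. In normoxia it was at 304 and 313 CPM without vehicle, 279 and 299 CPM with vehicle, and 483, 575 and 536 CPM with ATRA. Under hyperoxia CEACAM6 was at 7.53 and 23.5 CPM without vehicle, 19.0 and 28.1 CPM with vehicle, and 137, 104 and 88.4 CPM with ATRA. The ATRA libraries lay above the controls at both oxygen levels, with the larger ratio in hyperoxia and the higher level in normoxia. The interaction was 1.67 in 14 libraries (SE 0.34, adjusted p = 0.143 by edgeR) and 1.41 in 13 (SE 0.20, adjusted p = 0.00194 by edgeR, from 1.16e-09 to 0.357 over 20 alternatives). LOC112268252, which overlaps CEACAM6, held 15.5% as many counts. Of other genes named here, GPRC5B is overlapped by IQCK, with 31.0% as many counts, and SQSTM1 by MRNIP, with 11.5%. IGF2 is overlapped by INS-IGF2, with 96.7%.

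KRT19, a keratin of simple epithelia, was at 89.8 and 95.4 CPM without vehicle and 95.9 and 95.9 CPM with vehicle in normoxia, and at 73.3, 61.3 and 87.6 CPM with ATRA. Under hyperoxia KRT19 was at 15.3 and 27.7 CPM without vehicle, 34.4 and 29.9 CPM with vehicle, and 77.3, 61.6 and 49.2 CPM with ATRA. ATRA libraries lay below the controls in normoxia and above them in hyperoxia. The interaction of KRT19 was 1.58 in 14 libraries (adjusted p = 0.129 by edgeR) and 1.40 in 13 (SE 0.23, adjusted p = 0.00457 by edgeR, from 3.14e-06 to 0.971 over 20 alternatives).

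The other genes with a higher ATRA effect in hyperoxia had interactions in 13 libraries between 0.70 for CLU, a secreted chaperone, and 2.45 for UNC13A, which primes vesicles for release. UNC13A had 0 counts in hyperoxia no vehicle replicate 1 and at most 12.9 CPM in every ATRA and hyperoxia library, against 40.9 to 51.1 CPM in the normoxia controls. NOTCH3, a Notch receptor, had an interaction of 2.15 (SE 0.39), and its ATRA libraries lay below the controls in normoxia and above them in hyperoxia. The same arrangement held for SULF2, an enzyme that edits heparan sulfate (0.90, SE 0.17), and for SLC9A3R1, a scaffold protein of the apical membrane (1.11, SE 0.22). For MTUS1, PSAT1, KIF3C, TNS4 and TRIB3 the left-out library lay above every ATRA library of its oxygen level. Their interactions were 0.97, 1.03, 1.19, 1.58 and 1.20 in 13 libraries against 0.59, 0.49, 0.77, 0.84 and 0.90 in 14.

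**Figure D2:**
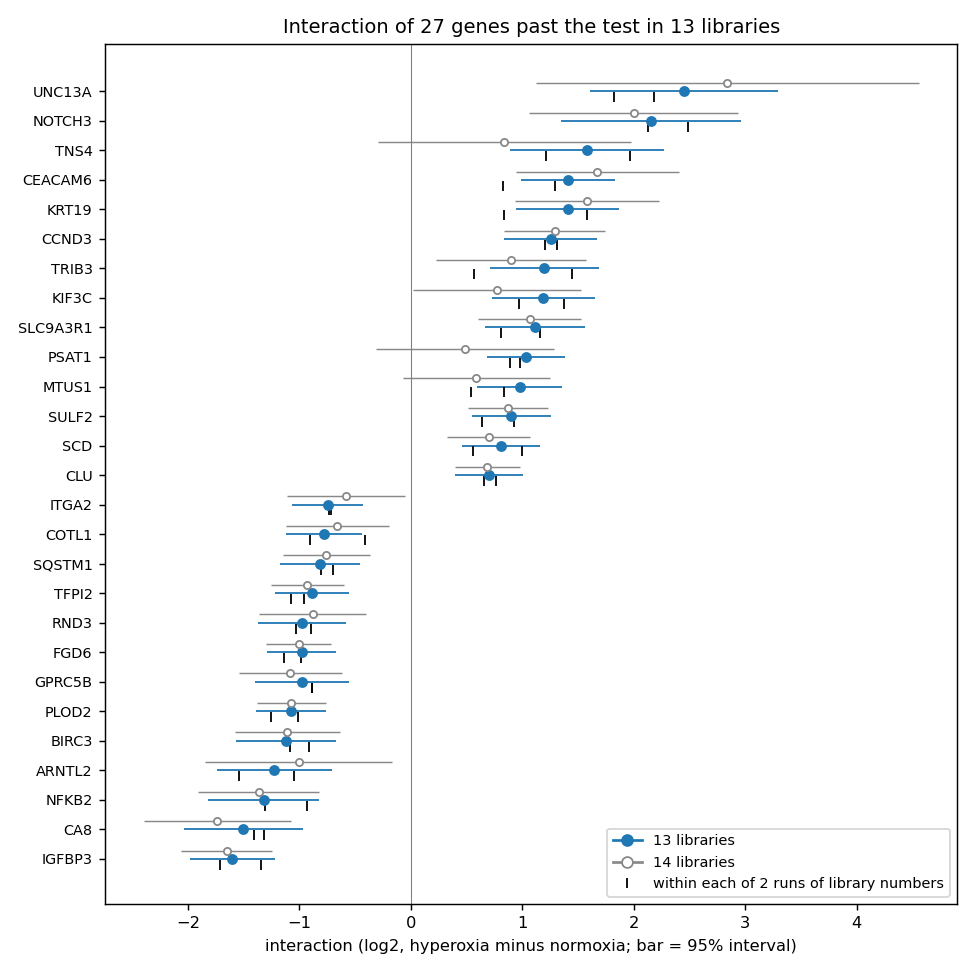
Interaction (log2, x axis) of 27 of the 29 genes past the test in 13 libraries, with 95% intervals (blue), the value in 14 libraries (open grey) and the value within each of 2 runs of library numbers (ticks). All 27 keep their side of 0 in each, but these values reuse the libraries by which the genes were chosen. The intervals of PSAT1, MTUS1 and TNS4 cross 0 in 14 libraries.

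The genes that differed with ATRA on average over both oxygen levels are a point of comparison. In total, 407 genes passed the test for an ATRA effect in 14 libraries (edgeR, adjusted p under 0.05), 247 higher and 160 lower. Of these, 296 (72.7%) had an interaction whose 95% interval lay within a 2-fold difference in either direction, and 2, IGFBP3 and TFPI2, had a called interaction. In 13 libraries the corresponding numbers were 826, 562 (68.0%) and 11. Across all genes tested, the 95% interval lay within 2-fold for 37.6% of genes in 14 libraries and 50.04% in 13. The 407 and 826 genes were picked by a small p in the same fits, which favours genes with a small SE. Their larger shares are thus not a result about ATRA-responsive genes. The median SE of the interaction was 0.43 and 0.33, so for many genes a 2-fold difference between the ATRA effects was not detectable at this depth and number of libraries.

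CYP26B1, DHRS3 and STRA6, which handle retinoids in the cell, rose with ATRA over both oxygen levels and had no called interaction. CYP26B1, a cytochrome P450 that degrades retinoic acid, was at 39.4 and 51.5 CPM without vehicle, 41.3 and 62.3 CPM with vehicle, and 864, 539.6 and 669.8 CPM with ATRA in normoxia. Under hyperoxia CYP26B1 was at 97.7 and 42.8 CPM without vehicle, 37.1 and 35.1 CPM with vehicle, and 842, 663 and 368 CPM with ATRA. Every ATRA library lay above every control. CYP26B1 rose with ATRA over both oxygen levels (log2 3.68, adjusted p = 3.93e-08 by edgeR), and its ATRA effect was 3.82 in normoxia and 3.54 in hyperoxia. The interaction was -0.28 (95% interval -1.22 to 0.66) in 14 libraries and 0.24 (-0.38 to 0.86) in 13, so its sign depended on that library. DHRS3, a retinal reductase, had ATRA effects of 1.70 and 1.59 and an interaction of -0.11 (-0.58 to 0.36), or 0.06 (-0.34 to 0.46) in 13 libraries. STRA6, a retinol transporter, had effects of 1.75 and 1.35 and an interaction of -0.40 (-1.09 to 0.29), or -0.14 (-0.67 to 0.38) in 13 libraries. The value for STRA6 was -1.08 with the no vehicle controls alone and 0.39 with the vehicle controls alone. Of 25 genes of retinoid metabolism, 14 were tested and none was called, where 0.0340% of all genes were called, so this count does not set the list apart. Their median interaction was -0.07, against 0.01 over all genes tested, and 0.05 in 13 libraries. Their median ATRA effect was 0.13 in normoxia and 0.43 in hyperoxia, or 0.12 and 0.36 in 13 libraries.

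Of 16 retinoid receptors and coregulators, 15 were tested and none was called. At an unadjusted p under 0.05, 1 was higher and 1 lower, where 295 of 14720 genes were higher and 3.33% of all were lower. In 13 libraries 1 was higher and none lower, where 4.42% of all genes were higher and 3.93% lower. The median interaction was 0.07, and 0.05 in 13 libraries. The smallest p of this list belonged to NCOA3, a coactivator of nuclear receptors. NCOA3 was at 361 to 449 CPM in normoxia controls and 252 to 265 CPM in normoxia with ATRA, where the groups did not overlap. In hyperoxia it was at 223 to 243 CPM in controls and 195 to 260.0 CPM with ATRA, where they did. Its interaction was 0.50 (SE 0.16, adjusted p = 0.721 by edgeR) and 0.52 in 13 libraries. RARB, a retinoic acid receptor that its own ligand induces, had ATRA effects of 1.33 in normoxia and 1.32 in hyperoxia in 13 libraries. TNFAIP2 rose with ATRA, with effects of 1.69 and 1.38 and an interaction interval of -0.64 to 0.03. NAMPT, which makes a precursor of NAD, fell with ATRA, with effects of -1.12 and -1.15 and an interval of -0.40 to 0.33. CAVIN2, a protein of caveolae, rose with ATRA, with 1.28 and 1.20 and an interval of -0.51 to 0.35, and so did PTPRJ, a receptor phosphatase, with 0.74 and 0.95 and an interval of -0.08 to 0.50. RSPO3, a secreted amplifier of Wnt signaling, fell with ATRA, with -1.08 and -1.34 and an interval of -0.70 to 0.18. CYP24A1, which degrades active vitamin D, rose with ATRA, with 0.96 in normoxia and 1.58 in hyperoxia. Its interaction interval, 0.20 to 1.04, did not include 0, but its adjusted p was 0.757 (edgeR) and 0.186 in 13 libraries (edgeR). All of these but NCOA3 rose or fell over both oxygen levels at an adjusted p of at most 0.00276 by edgeR, and NCOA3 fell (log2 -0.35, adjusted p = 0.0195 by edgeR).

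The list of other retinoic acid targets had 20 of 28 members tested, with a median interaction of -0.33, or -0.36 in 13 libraries. TFPI2 was called lower, where 0.0340% of all genes were called in either direction. At an unadjusted p under 0.05, 4 members were lower and 2 higher, where 3.33% of all genes were lower and 295 of 14720 were higher. The lower ones were TFPI2, TGM2, a transglutaminase (-0.68), HOXB3, a homeobox factor (-0.89 in 13 libraries), and GPRC5A, an orphan receptor (-0.36). The higher ones were the transcription factors ELF3 (0.48) and SOX9 (0.66). These 5 named beside TFPI2 did not pass the adjusted threshold. LXN, a carboxypeptidase inhibitor, had effects of 1.68 and 1.67 in 13 libraries.

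**Figure D3:**
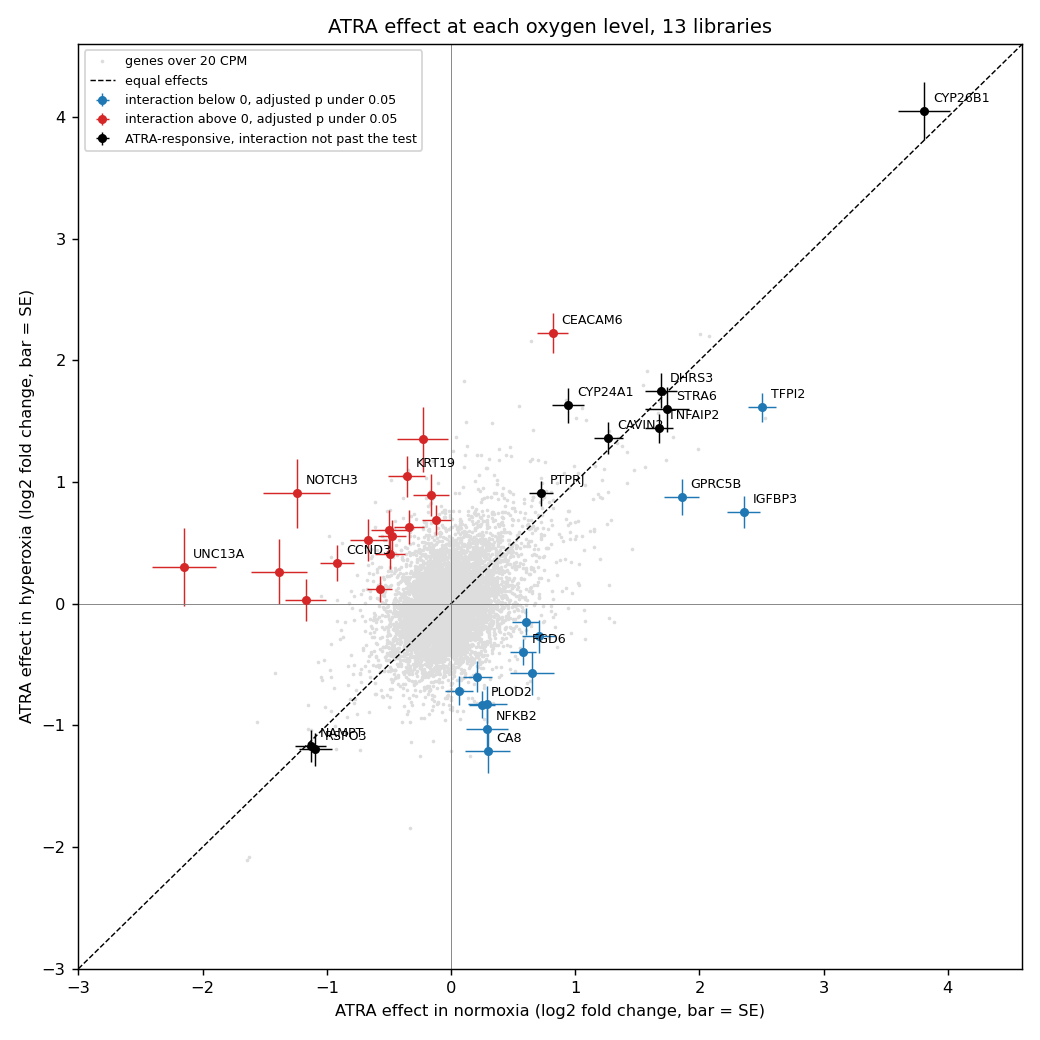
Log2 ATRA effect in normoxia (x axis) against hyperoxia (y axis) in 13 libraries, with SE bars for the 29 called genes (blue, interaction below 0; red, above 0) and 9 ATRA-responsive genes (black); grey points are genes over 20 CPM and the dashed line marks equal effects. CYP26B1, DHRS3, STRA6, CAVIN2 and NAMPT lie near the line, IGFBP3 and TFPI2 below it at 2.35 and 2.50 in normoxia, and CEACAM6 above it.

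No library is shared between the ATRA effects at the 2 oxygen levels. Across 8124 genes over 20 CPM in 13 libraries, Pearson's r between them was 0.43. It was 0.21 over all genes tested, where genes are not independent replicates and low counts add error.

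Among NF-kB subunits, inhibitors and targets, 27 of 38 genes were tested. In 14 libraries, 22 interactions were below 0, that is, lower ATRA effects in hyperoxia, and 5 were above 0, with a median of -0.50 against 0.01 over all genes. None passed the adjusted threshold, while 7 were lower and none higher at an unadjusted p under 0.05, where 3.33% of all genes were lower. In 13 libraries the median was -0.38, with 21 interactions below 0 and 6 above 0. NFKB2 and BIRC3 were called lower there, where 0.0889% of all genes were. At an unadjusted p under 0.05, 9 were lower and none higher, where 3.93% of all genes were lower and 4.42% higher. The list includes genes named in earlier results of these libraries and is not independent evidence of its direction.

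NFKB2 encodes the p100 and p52 subunit, on chromosome 10 from 102394110 to 102402529. In normoxia it was at 55.2 and 54.0 CPM without vehicle, 87.1 and 83.8 CPM with vehicle, and 96.4, 85.5 and 75.7 CPM with ATRA. The normoxia vehicle libraries thus lay among the ATRA libraries, and the no vehicle libraries below both. In hyperoxia it was at 243 and 229.5 CPM without vehicle, 224 and 233 CPM with vehicle, and 83.4, 113 and 137 CPM with ATRA, below every control, with the lowest of them within the range of the normoxia libraries. The interaction of NFKB2 was -1.37 in 14 libraries (SE 0.26, adjusted p = 0.117 by edgeR) and -1.32 in 13 (SE 0.24, adjusted p = 0.0157 by edgeR, from 9.06e-09 to 0.130 over 20 alternatives). It was -1.31 and -0.93 within the 2 runs.

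BIRC3, an inhibitor of apoptosis that NF-kB induces, was at 45.5 to 68.6 CPM in normoxia controls and 62.2 to 68.8 CPM in normoxia with ATRA, where the groups overlapped. It was at 392 to 481 CPM in hyperoxia controls and 196 to 308 CPM in hyperoxia with ATRA, where they did not. Its interaction was -1.11 in 14 libraries (adjusted p = 0.141 by edgeR) and -1.12 in 13 (adjusted p = 0.0227 by edgeR). The subunits NFKB1 (-0.68), RELA (-0.48) and RELB (-0.94) and the deubiquitinase TNFAIP3 (-1.66) were not called in 13 libraries. In 14 libraries their values were -0.68, -0.50, -0.98 and -1.39. In 13 libraries NFKBIA, the main inhibitor, was at -0.02 (SE 0.22). The chemokines CXCL1, CXCL2, CXCL3 and CXCL8 are given by their SEs alone, 0.94 to 1.34. All interactions given in this paragraph are below 0, while 6 of the 27 tested members were above 0 in 13 libraries.

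RefSeq promoters, taken here as the 250 bases before the annotated start (GRCh38.p14), were matched for 23 of these 27 genes and searched on both strands for a 9-base core of the NF-kB site, GGGNNTTTC. It was present in 10 of the 23 (NFKB1, REL, NFKBIA, NFKBIZ, TNFAIP3, BIRC3, CXCL1, CXCL2, CXCL3 and CXCL5), and in 455 of the promoters of 10833 tested genes. NFKB2 had none in this window. The 30 bases around the match are shown for 6 of the genes, 5′ to 3′ on the gene's strand with the match in capitals. They set the called BIRC3 beside members with interactions in 13 libraries from -1.66 to -0.02, and none above 0 is shown. TNFAIP3 held 2 matches and NFKBIA 3, of which the one farthest from the start is shown.
BIRC3, chr11:102317276-102317305, plus strand: ttgggtcatgGAAATCCCCgagtgggtttg
TNFAIP3, chr6:137867183-137867212, plus strand: cgtgactttgGAAAGTCCCgtggaaatccc
NFKB1, chr4:102501300-102501329, plus strand: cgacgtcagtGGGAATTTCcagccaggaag
CXCL5, chr4:73998749-73998778, minus strand: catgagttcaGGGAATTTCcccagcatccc
REL, chr2:60881519-60881548, plus strand: tcagccgcggGAAATTCCCctcccgccagg
NFKBIA, chr14:35404907-35404936, minus strand: gctcatcgcaGGGAGTTTCtccgatgaacc
The interactions of these genes in 13 libraries, in the same order, were -1.12, -1.66, -0.68, -0.56, -0.35 and -0.02. A match describes the letters only.

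The integrated stress response is the program by which the transcription factor ATF4 raises amino acid synthesis and transport when translation is restrained. Of 32 listed genes, 28 were tested, with 23 interactions above 0 and a median of 0.49. None was called in 14 libraries, while 9 were higher and 1 lower at an unadjusted p under 0.05, where 295 of 14720 genes were higher and 3.33% of all were lower. In 13 libraries the median was 0.53, and PSAT1, an enzyme of serine synthesis, and TRIB3, a pseudokinase that ATF4 induces, were called higher, where 0.109% of all genes were. A further 12 were higher at an unadjusted p under 0.05, where 4.42% of all genes were, among them DDIT4, an inhibitor of mTOR signaling (1.07), ASNS, which makes asparagine (1.09), the glycine transporter SLC6A9 (1.41) and NUPR1, a stress-induced chromatin protein (1.44). ATF5 (-0.70) and PPP1R15A (-1.21), which reverses the translational block, were lower at that level, as were 3.93% of all genes. ATF4 itself was at -0.12 (SE 0.13) in 13 libraries. Both calls were made only without hyperoxia no vehicle replicate 1: PSAT1 was at 195 CPM in it and 64.9 to 78.7 CPM in the other hyperoxia controls, and TRIB3 at 133 CPM against 67.9 to 76.9 CPM.

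Cholesterol and fatty acid synthesis genes, which the SREBP transcription factors control, had 31 of 31 members tested, 29 with an interaction above 0. The median was 0.47 in 14 libraries and 0.38 in 13. At an unadjusted p under 0.05, 10 were higher and none lower in 14 libraries, where 295 of 14720 genes were higher and 3.33% of all were lower. In 13 libraries 11 were higher and none lower, against 4.42% and 3.93%. In 13 libraries 3 were called higher, against 0.109% of all genes, among them SCD, which desaturates fatty acids (0.81). SCD was at 2949.6 to 3329.6 CPM in normoxia controls and 2649 to 3131 CPM in normoxia with ATRA, where the groups overlapped. In hyperoxia it was at 1018 to 1527 CPM in controls and 1859 to 2034 CPM with ATRA, where they did not. In 13 libraries, the log2 ATRA effects in normoxia of FASN, the fatty acid synthase (-1.02), IDI1 (-0.85) and HMGCS1 (-0.83), enzymes of the mevalonate pathway, were lower than those in hyperoxia, at -0.46, -0.15 and -0.51. None of the 3 had a called interaction.

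Mucins and epithelial keratins had 12 of 20 members tested, with 9 interactions above 0, a median of 0.46, and 5 higher and 1 lower at an unadjusted p under 0.05, where 295 of 14720 genes were higher and 3.33% of all were lower. Beside KRT19, the higher ones were MUC5AC (0.82 in 13 libraries), KRT8 (0.49), KRT18 (0.44) and KRT81 (0.51), and the lower one was MUC13 (-1.19). The median was 0.49 in 13 libraries. The summed level of 7 epithelial markers was 6996 to 8868 CPM in normoxia controls, 8738 to 11542 CPM in normoxia with ATRA, 3281 to 4017 CPM in hyperoxia controls and 5664 to 6935 CPM in hyperoxia with ATRA. None of the 7 was at 0 in all libraries, but KRT7, KRT8 and KRT18 held most of the sum. EPCAM had 0 to 24 counts and CLDN4 0 to 39. Of 20 alveolar type I and type II markers, SFTPA1, SFTPA2, AQP5, HOPX and PDPN were at 0 in all 14 libraries, 8 passed the filter on low counts, and the summed level of the 20 was 470.3 to 765 CPM. CAV1, with 893 to 2294 counts, was the largest part of that sum, and SFTPB, SFTPC and SFTPD had at most 5 counts.

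For other lists the medians lay nearer 0. Of 40 p53 targets, all tested, none was called, and the median was 0.00, or 0.03 in 13 libraries. CDKN1A, the p53-induced inhibitor of cell division, was at 956 to 1143 CPM in all hyperoxia libraries and 65.4 to 108 CPM in all normoxia libraries, with an interaction of 0.30 (95% interval -0.09 to 0.68). Of 42 cell cycle genes, none was called, and the median was 0.14, or 0.01 in 13 libraries. MKI67, a marker of dividing cells, had an interaction of 0.18 (-0.53 to 0.88). Among 30 NRF2 targets the median was -0.01, or 0.04 in 13 libraries, and among 20 peroxide and superoxide removal genes it was 0.07 in both, with none called and none of the latter at an unadjusted p under 0.05. GPX1, a glutathione peroxidase, had an interaction of -0.21 (-0.72 to 0.30). None of 32 tested genes of glycolysis and HIF targets was called, and their median was -0.06, or 0.05 in 13 libraries. The median was -0.08 for 32 interferon-stimulated genes, or -0.19 in 13 libraries, and -0.05 in both for 24 genes of complement, coagulation and acute phase, with none called. For 17 cytochrome P450 genes it was -0.02. At an unadjusted p under 0.05, 2 of them were higher and none lower, where 295 of 14720 genes were higher and 3.33% of all were lower. Without hyperoxia no vehicle replicate 1 the cytochrome P450 median turned in sign, to 0.18 over 16 genes, with none called. In that fit 4 were higher and none lower at an unadjusted p under 0.05, where 4.42% of all genes were higher and 3.93% lower.

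Adhesion and junction genes had 47 of 52 members tested and a median of -0.05, or -0.09 in 13 libraries. None was called in 14 libraries. In 13 libraries, CEACAM6 and TNS4, a focal adhesion protein (1.58), were called higher, and ITGA2, an integrin that binds collagen (-0.75), lower. Over all genes, 0.109% were called higher and 0.0889% lower. Of 40 tested Wnt ligands, modulators and readouts, none was called, and the median was 0.23. At an unadjusted p under 0.05, 3 were higher and 3 lower, where 295 of 14720 genes were higher and 3.33% of all were lower. In 13 libraries the median was 0.21 and none was called. There 5 were higher and 3 lower at that level, where 4.42% of all genes were higher and 3.93% lower. The smallest p of this list belonged to LGR4, a receptor for R-spondins (0.83, SE 0.22, adjusted p = 0.417 by edgeR). WNT7B, a Wnt ligand, was at 0.60 (SE 0.23). The IGF axis, with 17 members tested, had only IGFBP3 called, where 0.0340% of all genes were called. The median of this list moved from -0.28 to -0.08 without hyperoxia no vehicle replicate 1. The 14 tested EGFR ligands and receptors had a median of 0.24, or 0.16 in 13 libraries, and none called. In 14 libraries EGFR itself was at -0.55 (SE 0.13) and EREG, a ligand, at -0.81 (SE 0.24), with adjusted p of 0.337 and 0.621 (edgeR). Of 79 cytosolic ribosomal protein genes, none was called, 59 had an interaction above 0, and the median was 0.10. At an unadjusted p under 0.05, 9 were higher and 1 lower, where 295 of 14720 genes were higher and 3.33% of all were lower. In 13 libraries the median was 0.16, with 63 above 0. In that fit 10 were higher and 3 lower at an unadjusted p under 0.05, where 4.42% of all genes were higher and 3.93% lower. The 13 tested structural RNAs were all below 0, with a median of -0.20, and 10 were below 0 in 13 libraries, with a median of -0.27. None was called or at an unadjusted p under 0.05.

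**Figure D4:**
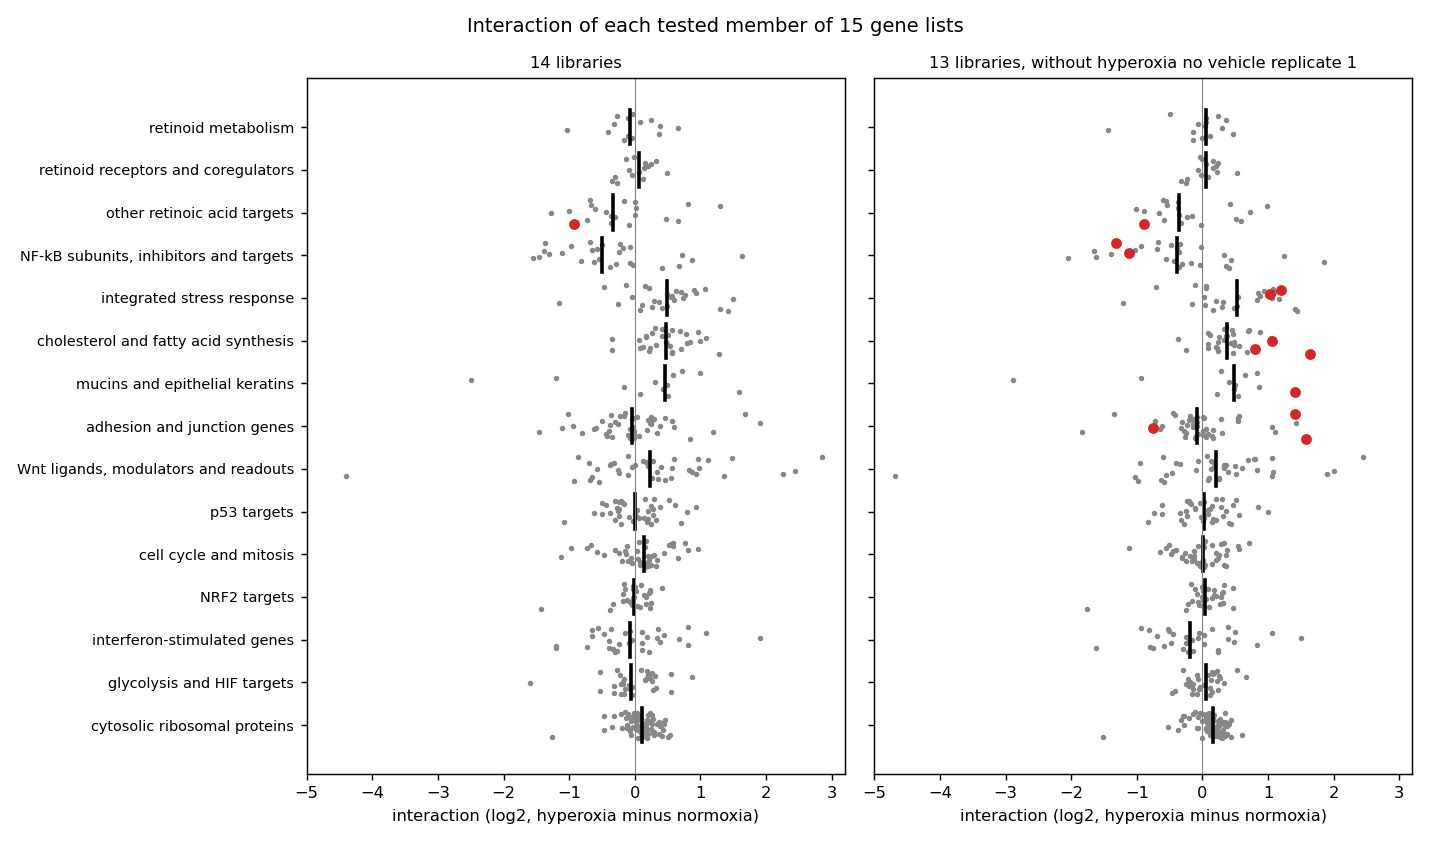
Interaction (log2, x axis) of each tested member of 15 gene lists in 14 libraries (left) and 13 (right), with a bar at each list's median and called members in red. Medians of -0.50 and -0.38 for NF-kB genes and of 0.47 and 0.38 for cholesterol and fatty acid synthesis stand to either side of 0, while p53 targets and NRF2 targets centre near it.

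For the interaction, pooling the controls assumes that vehicle and no vehicle libraries respond alike to oxygen. The paper states that ATRA was dissolved in ethanol. ATRA effects at one oxygen level, and their mean, therefore also hold any ethanol effect relative to the no vehicle controls. The ethanol effect at each oxygen level was not tested separately here. In a fit of 6 groups, the vehicle effect differed between the oxygen levels for 1 of 15339 genes, or 0.00652%, namely RPS29, a ribosomal protein gene (log2 2.27, SE 0.28, adjusted p = 0.00910 by edgeR), with 744 genes at an unadjusted p under 0.05. Without hyperoxia no vehicle replicate 1, RPS29 was again the gene called, with 427 at an unadjusted p under 0.05. RPS29 was at 1571 and 1105 CPM in the hyperoxia vehicle libraries and between 256 and 424 CPM in the other 12. RN7SL1 overlaps it and held 314% as many counts. The ATRA interaction of RPS29 was -1.26 (SE 0.62, adjusted p = 0.921 by edgeR) with pooled controls and 0.33 with the no vehicle controls alone. For the 5 genes called in 14 libraries, the vehicle by oxygen value lay between -0.30 (CCND3) and 0.36 (IGFBP3), with none called. For NFKB2 it was -0.69 (SE 0.27, adjusted p = 0.869 by edgeR). It was larger for STRA6, at -1.48 (SE 0.26, adjusted p = 0.311 by edgeR), KIF3C, at -1.30 (SE 0.33), CYP26B1, at -1.20 (SE 0.55), and GPRC5B, at -0.88 (SE 0.21), and it was -0.60 for DHRS3 (SE 0.26), each with an unadjusted p under 0.05 and none called.

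Markers of other cell types were low. The summed levels were at most 22.7 CPM for fibroblast, 6.08 CPM for endothelial and 40.6 CPM for adipocyte markers. The 8 immune markers summed to 22.0 to 28.1 CPM in normoxia controls, 36.8 to 49.3 CPM in normoxia with ATRA, 60.0 to 105 CPM in hyperoxia controls and 88.2 to 93.8 CPM in hyperoxia with ATRA. CD3E and TYROBP were at 0 in all 14 libraries, as were VWF, TIE1 and TEK, DCN, ADIPOQ and LEP. The part of these levels in the interactions was not tested.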

How the data were processed

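RNA-seq libraries of A549 cells were analysed from the whole-number counts per gene that the authors deposited, without normalization. The submitters' processing notes name Trimmomatic 0.38, HISAT2, HTSeq and DESeq2 with build hg38. The libraries were stranded, but how the counting treated strand and overlapping genes is not given in the sources used here. Between 48.6% and 55.3% of the reads in a file were tallied as matching no counted feature and were left out of library sizes. That tally does not say that they lay outside genes.

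Counts were fitted with edgeR 4.0.16 in R 4.3.3: filterByExpr (minimum count 10, total 15), TMM, oxygen, ATRA and their product, quasi-likelihood test, Benjamini-Hochberg adjustment over all genes tested, threshold 0.05. Control libraries pooled vehicle and no vehicle. ATRA effects at one oxygen level were given with SE and no test. CPM of single genes are TMM-normalised. Summed marker levels are relative to unscaled library totals, on which 3 counts correspond to 0.535 to 1.14 CPM, covering counting error only. Principal components used log2 CPM with a prior count of 2.

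The members, gene lists and tests were chosen with earlier results of these data known. Genes named are the 10 with the smallest interaction p in each direction (CTSL, LRP1, NOTCH2 and ANKRD33B among them, not called), called list members, the 10 with the smallest p for the mean ATRA effect, the member of each list with the smallest p, and genes that the paper names. Other members of the NF-kB, stress response, lipid, mucin and retinoic acid lists given with values, and those of the 24 genes added by the fit of 13 libraries that this rule does not cover, were chosen after their values were seen. Chi-square tests found no pair of libraries that agreed within sampling noise. Alternatives were DESeq2 1.42.0, RLE size factors, no filter, either kind of control alone, an ethanol term, a block of library number runs, and leaving out each library. Added after seeing the data were the 13 library fit, limma 3.58.1 voom with quality weights, and leaving out other sets of libraries. The procedure was also run on simulated counts, which held no library that stood apart, and no result given here rests on that run. RefSeq (GRCh38.p14) gave positions and promoters, and 36110 of 43388 symbols had an entry. Plots used matplotlib in Python. Values of some genes that the naming rule covers are not reported here. One library with conflicting labels was not assigned.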

Additional observations from a re-analysis of the deposited data

Results flagged for a closer look

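The ATRA effect differed between the oxygen levels, by the interaction term of edgeR's quasi-likelihood test, for IGFBP3 (-1.65), FGD6 (-1.01), PLOD2 (-1.07), TFPI2 (-0.93) and CCND3 (1.29), given above.

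Single libraries lay far from the other 3 of their control group in 12 of 138 comparisons of total counts, genes with a count and named genes (Dixon's test at 95%, groups of 4). Chance alone gives about 1 in 20 for a single comparison. The 12 of 138 cannot be set against that rate, since the genes share libraries. Some, such as MTUS1, PSAT1 and TRIB3, were also named only because leaving out hyperoxia no vehicle replicate 1 made them called. In hyperoxia no vehicle replicate 1, 5 genes were high: CA8 (113 CPM), CYP26B1 (97.7 CPM), MTUS1 (156 CPM), PSAT1 (195 CPM) and TRIB3 (133 CPM). In hyperoxia no vehicle replicate 2, CCND3 (119.8 CPM) and LGR4 (56.8 CPM) were high. In normoxia no vehicle replicate 1, KRT19 (89.8 CPM) was low, and GCLC (256 CPM) and RSPO3 (155 CPM) were high. In normoxia vehicle replicate 2, PTPRJ (229 CPM) and TNS4 (117 CPM) were low.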

How the results depend on the processing

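The 5 genes with an interaction became 49 with DESeq2, 32 without a filter on low counts, 21 with vehicle controls alone, 0 with no vehicle controls alone, 3 with an ethanol term, 59 with voom quality weights and 19 without hyperoxia no vehicle replicate 1 and hyperoxia ATRA replicate 1. Leaving out single libraries gave 1 (without hyperoxia ATRA replicate 2) to 29 (without hyperoxia no vehicle replicate 1). RLE size factors and a run block gave 4 each. The 29 genes of the 13 library fit became 105 with DESeq2, 120 without a filter, 0 with no vehicle controls alone (486 at an unadjusted p under 0.05), where the 1 remaining hyperoxia control library was assumed to vary like the other groups, 72 with voom, and 11 (without either hyperoxia vehicle library) to 66 (without hyperoxia ATRA replicate 3) with 1 more library left out. The single vehicle by oxygen gene became 2 with DESeq2, 25 without a filter, and 0 (without hyperoxia vehicle replicate 1 or normoxia vehicle replicate 2) to 3759 when hyperoxia no vehicle replicate 2 was left out, so that replicate 1, which stands apart, was alone in its group and was assumed to vary like the other groups. The causes were not tested. Fewer libraries entered both fits of one kind of control than the main fit.

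The direction reversed in 36 values of 11 genes, none of them called in 14 libraries. With vehicle controls alone, CYP26B1 was 0.42, DHRS3 0.23, CAVIN2 0.082, STRA6 0.39, SFRP4 0.49 and MKI67 -0.078. With no vehicle controls alone, NAMPT was 0.20, RPS29 0.33 and ATOH8 -0.32. With a run block, CYP26B1 was 0.024. With voom, CAVIN2 was 0.061, SFRP4 0.0099, ATOH8 -0.25 and MKI67 -0.023. Without IA01 to IA03, CYP26B1 was 0.13, CAVIN2 0.029, RSPO3 0.0052, SFRP4 0.22 and ATOH8 -0.12. Without hyperoxia no vehicle replicate 1 and hyperoxia ATRA replicate 1, CAVIN2 was 0.048, SFRP4 0.076 and ATOH8 -0.37. With 1 library left out, the ranges were -0.54 to 0.24 for CYP26B1, -0.22 to 0.060 for DHRS3, -0.12 to 0.047 for NAMPT, -0.14 to 0.093 for CAVIN2, -0.61 to 0.15 for IGF2, -0.93 to 0.12 for SFRP4, -0.39 to 0.41 for ATOH8 and -0.042 to 0.37 for MKI67. Of 552 medians of gene lists under the alternatives, 37 moved beyond the spread between replicates, 7 of them in the IGF axis. The NF-kB median stayed between -0.58 and -0.25, that of cholesterol and fatty acid synthesis between 0.27 and 0.61, and that of the stress response between 0.33 and 0.55.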

Other observations

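Of the genes with the smallest interaction p that no list held, LRP1, an endocytic receptor, was at 109 to 138 CPM in normoxia controls and 108 to 133 CPM in normoxia with ATRA, where the groups overlapped. In hyperoxia it was at 204 to 281 CPM in controls and 357 to 431 CPM with ATRA, where they did not (interaction 0.78, SE 0.18, adjusted p = 0.308 by edgeR). CTSL, a lysosomal protease, was likewise above the controls in hyperoxia alone (0.71, SE 0.16, adjusted p = 0.308 by edgeR). NOTCH2, a Notch receptor, was above the controls in normoxia alone (-0.74, SE 0.14, adjusted p = 0.129 by edgeR), and so was ANKRD33B (-0.93, SE 0.20, adjusted p = 0.166 by edgeR).

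The library left out of every comparison is titled hyperoxia, but its treatment label names another treatment. It had 4415705 counts on 19131 genes. Its 7 adipocyte markers summed to 22.6 CPM, against at most 40.6 CPM in the other libraries, and its epithelial markers to 4057 CPM.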
